A study of Mus musculus with 9 samples.

Results

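Transcripts of the constitutive proteasome were followed in mouse splenic B cells that had lost the transcription factor gene Yy1. The group comprised 40 genes, named in a list of subunits and helpers: 7 alpha and 7 beta subunits of the 20S core, 9 genes of the base and 8 of the lid of the 19S cap, 4 activators of the PA28 and PA200 type and 5 chaperones of core assembly. Each was found by its Ensembl ID among the 48795 genes of the count files, and all 40 passed the low-count filter that left 15546 genes for testing. Follicular B cells had been selected on CD23 from spleens of C57BL/6 yy1 f/f mice, in which both treated and control cells carry the floxed allele. The tatcre libraries (n = 3) came from cells given TAT-CRE, a cell-permeable Cre recombinase that deletes the floxed gene, and the mock libraries (n = 3) from cells given a mock treatment. Both were then cultured with LPS+IL4, for 72 hours in 10% serum by the series text and for 48 hours in 20% serum by the sample text. No source used here states the sex or age of the mice. The sample text lists TAT-CRE for every sample, mock included, so the groups were taken from the sample titles. The series text describes spleens of 3 mice divided over the treatments, but the labels do not tie libraries to mice; p-values therefore measure only how far these libraries spread, which may be technical.

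The proteasome is the main protease of the cytosol and nucleus and degrades proteins tagged with ubiquitin. Its 20S core is a barrel of stacked rings: outer alpha rings gate the entry and inner beta rings hold the proteolytic sites. The 19S cap recognises ubiquitin, removes it and feeds the unfolded substrate into the barrel by means of a ring of ATPases, while PA28 and PA200 are alternative caps that act without ATP. Activated B cells make and turn over much protein, and cells of the antibody-secreting lineage are known for their sensitivity to proteasome inhibitors.

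The libraries held 22729187 to 28230727 gene counts. Yy1 averaged 1.5 ± 0.51 CPM in tatcre and 107 ± 5.89 CPM in mock libraries (SD, n = 3 each), where CPM is the count scaled to a common library size, TMM factors included. All 8 B cell markers were detected, with a summed level of 4136 to 4202 CPM in tatcre and 5059 to 5350 CPM in mock libraries, and 5 of them were called lower. Summed markers of T cells, NK cells, neutrophils and erythroid cells stayed at or under 1.55 CPM in every library. Of 6 macrophage or monocyte markers 2 reached 1 CPM in any library, with sums of 12.6 to 15.8 CPM in tatcre and 22.5 to 28.2 CPM in mock libraries, mostly from Cd68. Of 5 dendritic cell markers 2 did, with sums of 106 to 113 CPM in tatcre and 120 to 134 CPM in mock libraries, mostly from Flt3. The 4 plasma cell markers summed to 104 to 121 CPM in tatcre and 121 to 167 CPM in mock libraries. The part of these differences in the values below was not tested. Mock 3 stood apart from the other libraries on a principal component analysis and held counts for 20420 genes, fewer than any other library (21875 to 23197).

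Most proteasome transcripts passed no test of change, and the changes that did were mostly moderate falls spread over core and cap. Of the 40 genes 10 were called lower in tatcre cells, 1 was called higher and 29 were not called (edgeR quasi-likelihood test, Benjamini-Hochberg adjusted p under 0.05). The largest falls were those of Psmc3 (1.92-fold), Psmd11 (1.67-fold) and Psmb5 (1.6-fold), and the gene called higher was Psma3 (1.39-fold). The 10 falls are 25% of the genes, beside 16.3% of all tested genes called lower, and the 1 rise is 2.5%, beside 10.8% of all tested genes called higher; called in either direction were 11 of 40, beside 27.1%. Well-expressed genes were called lower more often: among 2686 tested genes of mean log2 CPM 6 to 8 the share was 24.2%, with 10.9% called higher, and of the 24 proteasome genes in that range 6 were called lower and 0 higher. The share of falls is thus near that of genes of like abundance. The median log2 fold change of the 40 genes was -0.13, and that of all tested genes 0.02. Groups did not overlap for 14 of the 40 genes, or 35%, beside 44% of all tested genes. Scaling moved the split between falls and rises: it was 10 to 1 as reported and with RLE factors (15.8% of all genes lower, 11.3% higher), 7 to 2 with upper-quartile factors (13.5% lower, 14.3% higher) and 5 to 2 with library size alone (12.2% lower, 16.8% higher), which puts the median over all genes at 0.13. It was 12 to 1 without the low-count filter (10.8% lower, 7.11% higher), 11 to 1 with DESeq2 (14.7% lower, 10.6% higher), 7 to 1 with the replicate number as a block (13.6% lower, 8.45% higher) and 4 to 1 at an adjusted p under 0.01 (10.2% lower, 5% higher). Library size alone ended the calls of Psma2, Psmc4, Psmc6, Psmd4 and Psmd8, and upper-quartile factors those of Psmc4, Psmc6 and Psmd4. In bulk libraries fewer cells of a type and less RNA per cell cannot be told apart.

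**Figure D1:**
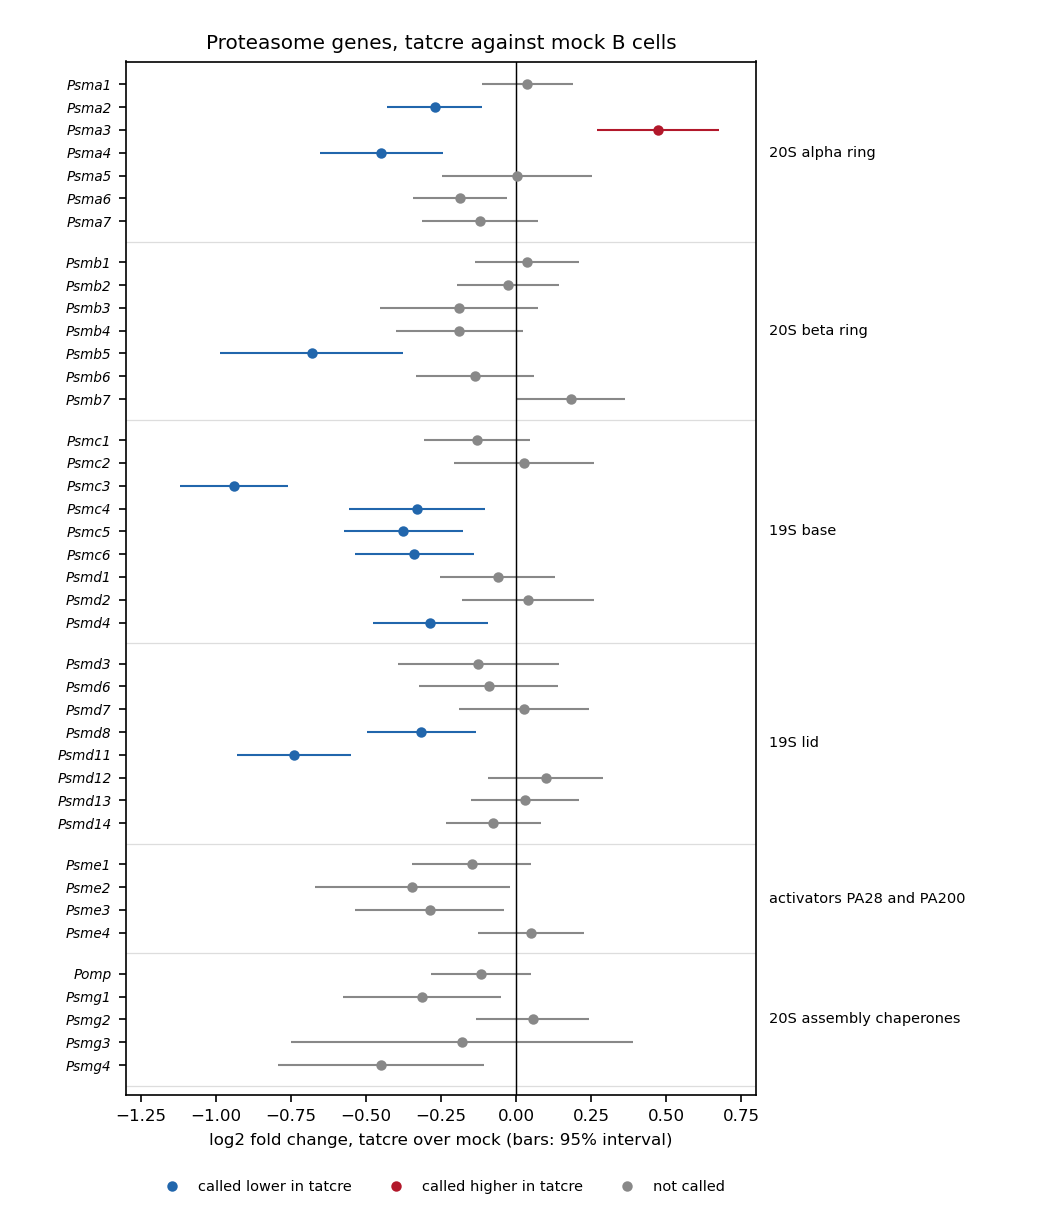
Log2 fold change of the 40 proteasome genes, tatcre over mock (x axis), by subcomplex (y axis). Points are edgeR estimates from 3 tatcre and 3 mock libraries, bars are 95% intervals and colour marks the call. The 10 genes called lower include 5 of the 9 genes of the 19S base, and Psma3 is the gene called higher.

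YY1 itself binds DNA, so the promoters of these genes were searched for its motif, AANATGGC on either strand, in RefSeq windows (GRCm38.p6) of 250 bases before to 50 bases from a transcript start on. Of the 40 genes 33 had a promoter in the table; Psmb1, Psmb2, Psmb7, Psmc3, Psmd3, Psmd7 and Psmg2 had none there. The 33 genes had 36 windows, and a gene counted as matched if any of its windows held the motif. For 8 of the 36 windows base 1, the start the window is built on, lies inside the gene span and is not its first base. The distance was 14603 bases for a second Psma6 window, 5340 for the only Psma3 window and 530 for the only Psmd2 window. For Psma3 and Psmd2 no window at the first base of the span was thus searched. The motif matched in 6 of the 33 promoters. Of the 9 genes called lower with a promoter, Psmc4, Psmc6, Psmd4 and Psmd11 held no match. Psmc3, the largest fall, had no promoter to search. The remaining 5 of the 9 held a match (Psma2, Psma4, Psmb5, Psmc5 and Psmd8), against 1 of the other 24 genes (Psmb6). The stretch from base -100 to base 50 of these 6 promoters is shown 5′ to 3′ along the gene, to let the position of each match be seen; capitals mark the motif or its complement, and base 1 is the start of the RefSeq window. In Psma4 and Psmb6 base 1 lies 78 and 33 bases inside the gene span whose coordinates are given here.
Psma2, chr13:14613142-14613291, plus strand: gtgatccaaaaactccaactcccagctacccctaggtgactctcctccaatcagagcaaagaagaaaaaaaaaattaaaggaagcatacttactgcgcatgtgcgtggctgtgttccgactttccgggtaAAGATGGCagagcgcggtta
Psma4, chr9:54950759-54950908, plus strand: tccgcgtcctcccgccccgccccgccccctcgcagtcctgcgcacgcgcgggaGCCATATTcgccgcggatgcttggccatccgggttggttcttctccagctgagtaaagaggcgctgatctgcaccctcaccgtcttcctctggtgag
Psmb5, chr14:54617946-54618095, minus strand: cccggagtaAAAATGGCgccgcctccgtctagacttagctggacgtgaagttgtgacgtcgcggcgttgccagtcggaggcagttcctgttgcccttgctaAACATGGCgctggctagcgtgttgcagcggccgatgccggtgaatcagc
Psmc5, chr11:106256085-106256234, plus strand: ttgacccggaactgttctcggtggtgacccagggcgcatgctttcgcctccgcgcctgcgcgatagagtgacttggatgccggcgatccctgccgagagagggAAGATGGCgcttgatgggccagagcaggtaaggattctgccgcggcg
Psmd8, chr7:29180624-29180773, minus strand: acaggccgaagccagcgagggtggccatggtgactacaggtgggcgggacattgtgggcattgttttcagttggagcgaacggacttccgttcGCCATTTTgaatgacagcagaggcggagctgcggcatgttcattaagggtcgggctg
Psmb6, chr11:70525257-70525406, plus strand: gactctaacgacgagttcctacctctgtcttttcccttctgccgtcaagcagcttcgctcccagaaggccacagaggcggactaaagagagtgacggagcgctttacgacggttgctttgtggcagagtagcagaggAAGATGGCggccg
In 3 of the 6 a match reached base 1 or began just after it, and ran no further than base 11: from base 2 to 9 in Psmb5, from base 4 to 11 in Psmc5 and from base -7 to 1 in Psmd8, where the complement lies on the printed strand. In Psma2 and Psmb6 it lay further down, from base 31 to 38 and from base 38 to 45, and in Psma4 before base 1, from base -47 to -40, which is still inside the gene span. Psmb5 held 3 matches, of which the one from base -176 to -169 lies outside the printed stretch. The motif contains ATG, so a match inside a transcript can overlap a translation start. In Psma2, Psmc5 and Psmb6, and in the Psmb5 match that begins at base 2, this ATG follows base 1 on the strand of the gene. Each of these may be the start of the coding sequence, and no protein sequences were at hand to check it. The part of such overlap in these counts was not tested.

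This motif was present in 6.05% of all 32851 promoter windows. Among tested genes with a promoter it was present in 16.9% of the 1875 called lower, 8.42% of the 6912 not called and 9.84% of the 1220 called higher. The share in proteasome genes called lower, 5 of 9, rests on few genes and was given no test. Of these 9 calls, those of Psma4 and Psmb5, with a match, and Psmd11, without, held under all 13 alternative settings. The calls of the other genes among the 9 ended under at least 1 setting. The antioxidant response element TGACNNNGC, bound by the proteasome gene activator NRF1, matched in 5 of the 33 promoters (Psmb5, Psmb6, Psmc6, Psmd12 and Psme4), beside 12.4% of all windows and 16.6% of tested genes. The NF-Y box CCAAT matched in 11 of 33, beside 37.4% of all windows and 43.1% of tested genes. The shares of 15.2% and 33.3% of the proteasome genes are thus below that of tested genes for both motifs, and neither difference was tested. A match is a description of letters, not evidence of binding.

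**Figure D2:**
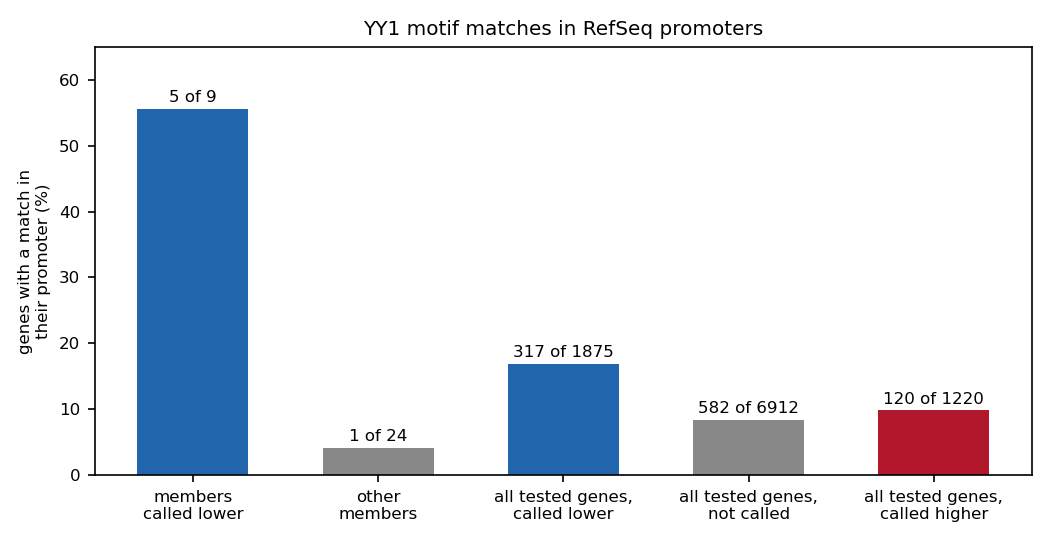
Share of genes whose RefSeq promoter holds AANATGGC on either strand (y axis, percent), for proteasome genes and for all tested genes, split by call (x axis). Labels give the number of genes with a match and the number with a promoter: 5 of 9 proteasome genes called lower, 1 of 24 of the others and 317 of 1875 of all tested genes called lower. Some matches lie after the transcript start and can overlap a translation start.

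In the alpha ring, which gates the core, 2 of 7 genes were called lower, 1 higher and 4 were not called. Of all tested genes 16.3% were called lower and 10.8% higher. Psma4 (chromosome 9, 54950781 to 54958034 in GRCm38) had 444, 408 and 473 CPM in tatcre libraries 1 to 3, against 533, 614 and 662 CPM in mock libraries 1 to 3. Every tatcre library lay below every mock library, and the fall was 1.36-fold (log2 fold change -0.45, SE 0.09, edgeR adjusted p = 0.0048). Psma2 (chromosome 13, 14613242 to 14625673) had 151, 147 and 155 CPM in tatcre libraries, against 176, 189 and 182 CPM in mock libraries. Its groups did not overlap either, but the 1.21-fold fall (log2 fold change -0.27, SE 0.07, edgeR adjusted p = 0.018) was not called without tatcre 1 or without mock 2 (edgeR adjusted p = 0.065 and 0.054) or with the replicate number as a block (0.056).

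Psma3 (chromosome 12, 70969283 to 70995877) moved against the called genes of the ring. It had 37, 38.7 and 39.3 CPM in tatcre libraries and 25.7, 29.8 and 27.3 CPM in mock libraries, with no overlap. The rise was 1.39-fold (log2 fold change 0.47, SE 0.09, edgeR adjusted p = 0.0033). The gene shares 4263 bases of its span with the noncoding RNA 3110056K07Rik, which had 38 to 85 counts in tatcre and 42 to 75 in mock libraries, against 902 to 980 and 641 to 805 for Psma3. Of the alpha genes not called, Psma1 stood at 263 ± 4.02 CPM in tatcre and 256 ± 7.6 CPM in mock cells and Psma5 at 13.2 ± 0.972 and 13.1 ± 0.511 CPM in the same order (SD, n = 3 each). Psma6 lay at 201 to 208 CPM in tatcre and 226 to 244 CPM in mock libraries, without overlap (log2 fold change -0.19, edgeR adjusted p = 0.075), and Psma7 had a log2 fold change of -0.12.

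In the beta ring 1 of 7 genes was called lower, or 14.3% (beside 16.3% of all tested genes), and none higher (beside 10.8%). That gene was Psmb5 (chromosome 14, 54614120 to 54617995), which encodes the chymotrypsin-like catalytic subunit, the main target of clinical proteasome inhibitors. Psmb5 had 126, 129 and 144 counts in tatcre libraries, or 5.17, 5.39 and 5.77 CPM, against 242, 239 and 192 counts in mock libraries, or 9.14, 8.86 and 8.18 CPM. The groups were well separated, and the fall was 1.6-fold (log2 fold change -0.68, SE 0.14, edgeR adjusted p = 0.0043). With so few counts its level carries more counting error than those of the other called genes. The other catalytic subunits were not called: Psmb6, of the caspase-like site, averaged 84.5 ± 7.49 CPM in tatcre and 92.8 ± 4.91 CPM in mock cells, and Psmb7, of the trypsin-like site, 174 ± 14 CPM in tatcre and 153 ± 5.13 CPM in mock cells (SD, n = 3 each). Psmb7, at a log2 fold change of 0.18 (edgeR adjusted p = 0.12), was called higher with upper-quartile factors (0.028), with library size alone (0.018) and without tatcre 2 (0.036). The structural subunits Psmb1, Psmb2, Psmb3 and Psmb4 had log2 fold changes of 0.04, -0.03, -0.19 and -0.19. Summed over the 7 beta genes, the level was 819 ± 56.5 CPM in tatcre and 816 ± 24.1 CPM in mock cells (SD, n = 3 each). This sum is weighted to the genes with most counts. Of the 7 estimates 5 were below 0 and 2 above, with a median log2 fold change of -0.14. A pseudogene named Psmb6-ps2 had 111 to 136 counts in tatcre and 123 to 167 in mock libraries, and no source used here states how reads shared with it were assigned.

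**Figure D3:**
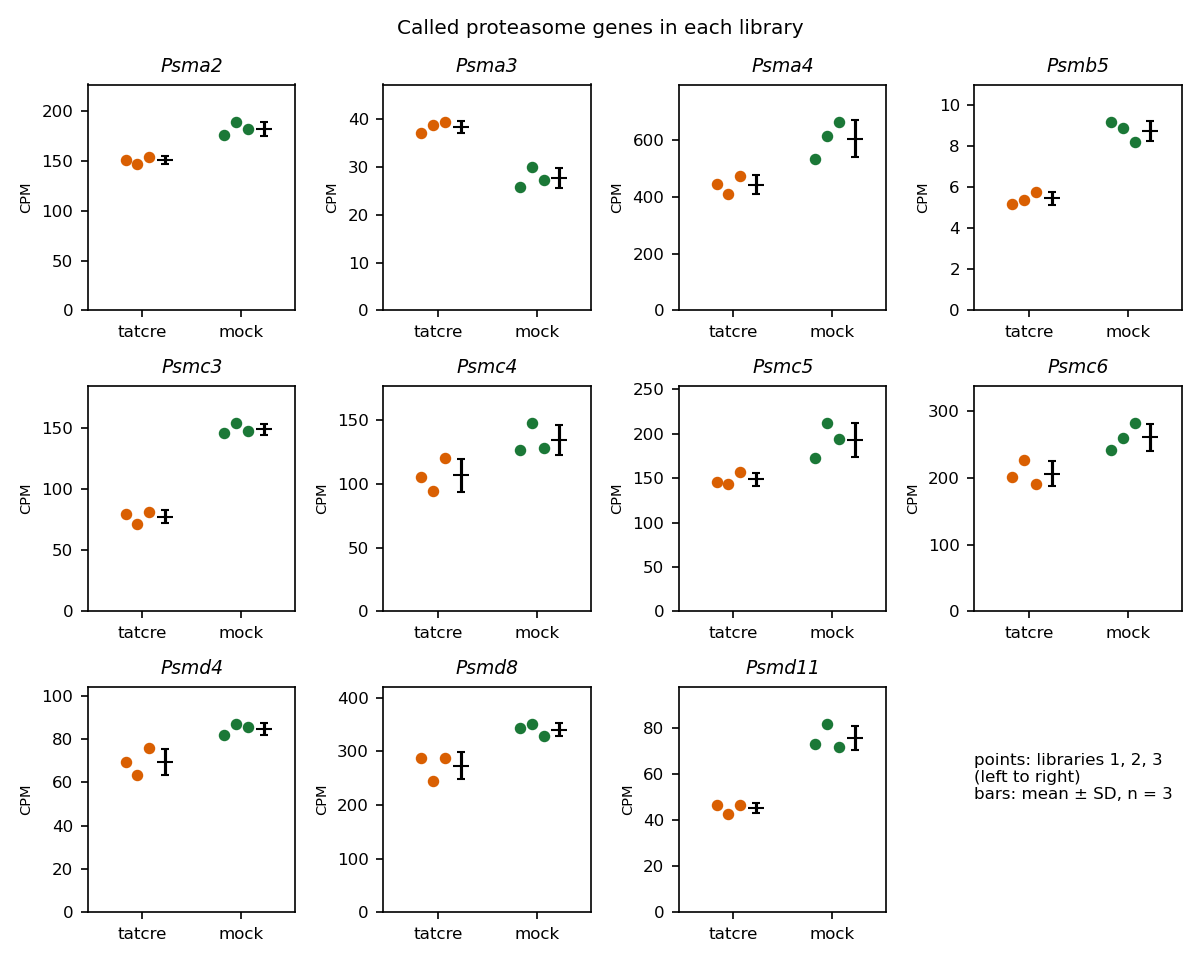
CPM (y axis, from 0) of the 11 called proteasome genes in each library (x axis, tatcre left of mock). Points are libraries 1 to 3 from left to right and bars are mean ± SD (n = 3). In each panel the groups do not overlap; Psmc3 lies at 71.1 to 81.5 CPM in tatcre and 146 to 154 CPM in mock libraries.

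The 19S base, which holds the ATPase ring and the ubiquitin receptors, had the most calls, with 5 of 9 genes lower and 4 not called. Its median log2 fold change was -0.29. Called lower were 16.3% of all tested genes and 24.2% of those of mean log2 CPM 6 to 8, the range of all base genes but Psmc1. Psmc3 (chromosome 2, 91054016 to 91059438), an ATPase subunit, had 79.9, 71.1 and 81.5 CPM in tatcre libraries, against 146, 154 and 147 CPM in mock libraries. Its level in tatcre cells was thus 0.521 of that in mock cells, well outside the spread of either group (log2 fold change -0.94, SE 0.08, edgeR adjusted p = 2.2e-05). Psmc5 (chromosome 11, 106256185 to 106263112), another ATPase, had 145, 144 and 157 CPM in tatcre libraries, against 173, 212 and 194 CPM in mock libraries. It fell 1.3-fold (log2 fold change -0.38, SE 0.09, edgeR adjusted p = 0.01).

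Smaller falls were called for 2 further ATPases and for a ubiquitin receptor, and these depended on the libraries used. Psmc6 (chromosome 14, 45329823 to 45349074) had 202, 227 and 191 CPM in tatcre libraries, against 241, 260 and 282 CPM in mock libraries (log2 fold change -0.34, SE 0.09, edgeR adjusted p = 0.017). Psmc4 (chromosome 7, 28041702 to 28050092) had 106, 94.5 and 120 CPM in tatcre libraries, against 127, 148 and 128 CPM in mock libraries (log2 fold change -0.33, SE 0.10, edgeR adjusted p = 0.036). Psmd4 (chromosome 3, 95032688 to 95042614), which encodes a receptor for ubiquitin chains, had 69.2, 63.5 and 75.7 CPM in tatcre libraries, against 81.6, 86.8 and 85.6 CPM in mock libraries (log2 fold change -0.29, SE 0.09, edgeR adjusted p = 0.032). In all 3 genes the highest tatcre library came close to the lowest mock library. The fall of Psmc6 was not called without tatcre 1, tatcre 3 or mock 3 (edgeR adjusted p = 0.077, 0.067 and 0.053), that of Psmc4 without tatcre 1, tatcre 2 or mock 2 (0.093, 0.092 and 0.13) and that of Psmd4 without any library but tatcre 3 or mock 1. With the replicate number as a block Psmc4 and Psmd4 were not called (edgeR adjusted p = 0.076 and 0.068). The count for the base was 3 with the block, and 2 to 5 when a library was left out. It was 2 without tatcre 1, 3 without tatcre 2, mock 2 or mock 3, 4 without tatcre 3 and 5 without mock 1. Of all tested genes 13.6% were called lower with the block and 12.2 to 14.9% with a library left out, beside 16.3% as reported.

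The remaining 4 base genes were not called. The ATPases Psmc1 and Psmc2 had log2 fold changes of -0.13 and 0.03, and the scaffold subunits Psmd1 and Psmd2 of -0.06 and 0.04. Psmc1 averaged 290 ± 17.3 CPM in tatcre and 317 ± 19.8 CPM in mock cells, and Psmc2 averaged 147 ± 16.3 and 145 ± 15.9 CPM in the same order (SD, n = 3 each). Genes of the same ATPase ring thus differed in their estimates, from -0.94 for Psmc3 to 0.03 for Psmc2. The difference between them was not tested.

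**Figure D4:**
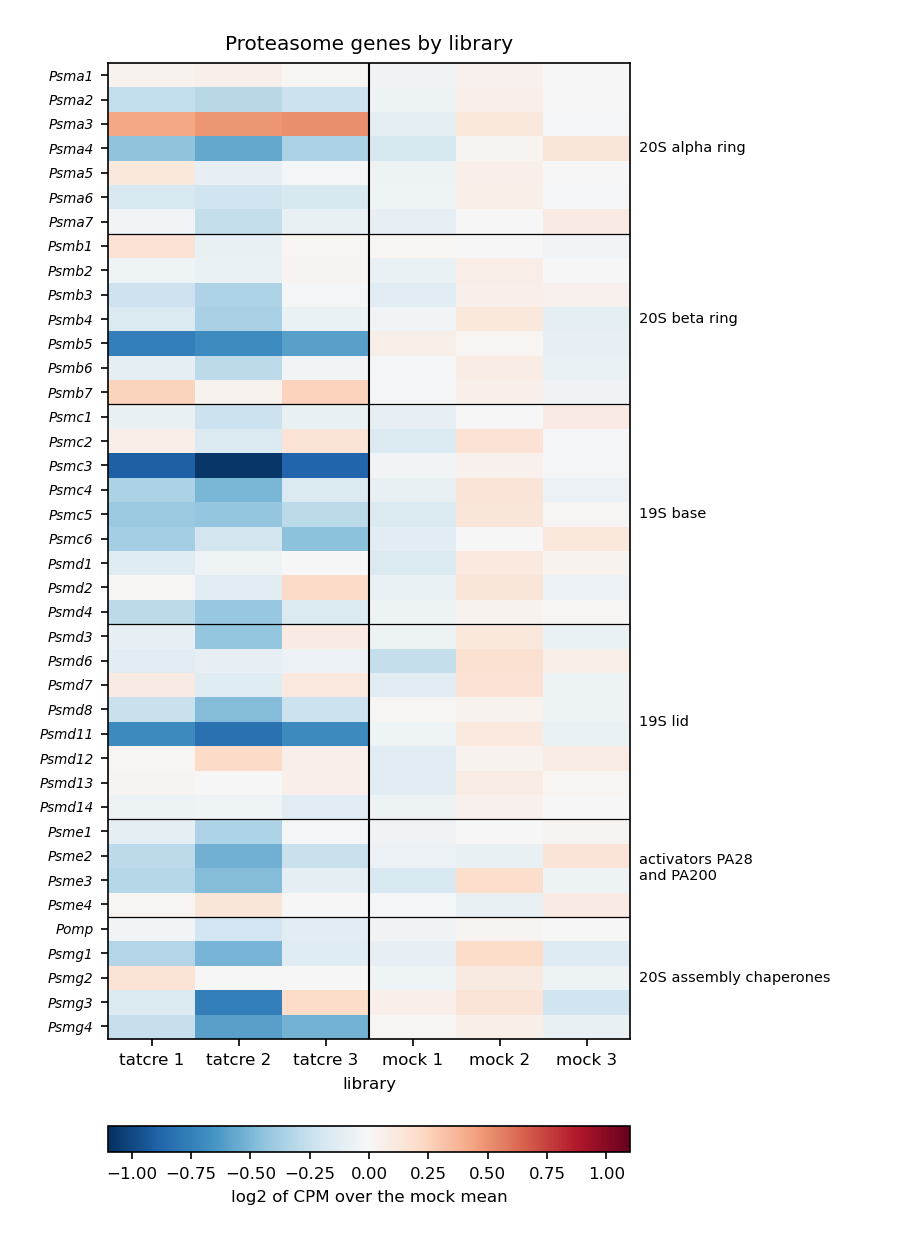
Log2 of CPM over the mock mean (colour) for the 40 proteasome genes (rows, by subcomplex) in the 3 tatcre and 3 mock libraries (columns). Psmc3, Psmd11 and Psmb5 are low and Psma3 is high in all 3 tatcre libraries; tatcre 2 is the lowest tatcre library for 31 genes and mock 2 the highest mock library for 30.

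In the 19S lid, which removes ubiquitin chains, 2 of 8 genes were called lower, or 25% (beside 16.3% of all tested genes), and 6 were not called. Psmd11 (chromosome 11, 80428615 to 80473248), a subunit that helps to hold core and cap together, had 46.3, 42.8 and 46.4 CPM in tatcre libraries, against 73.1, 81.4 and 71.7 CPM in mock libraries. The fall was 1.67-fold with a wide gap between the groups (log2 fold change -0.74, SE 0.09, edgeR adjusted p = 0.00014). Psmd8 (chromosome 7, 29174187 to 29180673), a lid subunit, had 287, 245 and 288 CPM in tatcre libraries, against 343, 351 and 328 CPM in mock libraries. Its fall of 1.24-fold (log2 fold change -0.32, SE 0.08, edgeR adjusted p = 0.016) was not called without mock 2 (0.055), which makes the lid's count 1.

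The other lid genes had log2 fold changes from -0.13 to 0.10. Psmd14, which encodes the deubiquitinase of the lid, averaged 224 ± 6.86 CPM in tatcre and 236 ± 8.82 CPM in mock cells, and its partner Psmd7 averaged 179 ± 16.5 CPM in tatcre and 176 ± 18.5 CPM in mock cells (SD, n = 3 each). Psmd3, Psmd6, Psmd12 and Psmd13 had log2 fold changes of -0.13, -0.09, 0.10 and 0.03. Psmd13 spans a pseudogene, Gm15542, with 3373 to 3906 counts in tatcre and 3667 to 4913 in mock libraries, more than Psmd13 itself, so its level carries that uncertainty.

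None of the 4 activator genes was called by edgeR (16.3% of all tested genes were called lower); at an unadjusted p under 0.05 Psme2 and Psme3 would pass, and DESeq2 called Psme3 lower (adjusted p = 0.044). Psme1 and Psme2, whose products form the interferon-inducible PA28 cap, averaged 201 ± 22.7 and 6.45 ± 0.673 CPM in tatcre cells, against 223 ± 5.3 and 8.2 ± 0.72 CPM in mock cells (SD, n = 3 each). The groups overlapped for Psme1 and not for Psme2, whose log2 fold change was -0.35 (SE 0.15, edgeR adjusted p = 0.11). A copy by name, Psme2b, had 64.1 to 84.9 CPM in tatcre and 95.7 to 98.9 CPM in mock libraries and was called lower (log2 fold change -0.35, edgeR adjusted p = 0.032), and no source used here states how reads shared by both were assigned. Psme3, which encodes the nuclear PA28 gamma cap, had 503, 449 and 582 CPM in tatcre libraries, against 556, 715 and 602 CPM in mock libraries (log2 fold change -0.29, edgeR adjusted p = 0.082). Tatcre 3 lay above mock 1, so the groups overlapped, and the gene was called lower without tatcre 3 or without mock 1 (edgeR adjusted p = 0.03 and 0.041). Psme4, of the PA200 cap, had a log2 fold change of 0.05; its span overlaps that of Erlec1, which had 2974 to 3768 counts in tatcre and 2242 to 2397 in mock libraries.

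None of the 5 assembly chaperones was called by edgeR or by DESeq2 (by edgeR 16.3% of all tested genes were called lower). At an unadjusted p under 0.05 Psmg1 and Psmg4 would pass. Pomp, the maturation factor that completes the beta ring, averaged 196 ± 12.2 CPM in tatcre and 213 ± 4.87 CPM in mock cells (SD, n = 3 each). Psmg1 and Psmg2 encode a pair that builds the alpha ring. Psmg1 had 54, 47.3 and 61.5 CPM in tatcre libraries, against 63.4, 77.7 and 61.2 CPM in mock libraries (log2 fold change -0.31, edgeR adjusted p = 0.074) and was called lower without tatcre 3 or mock 3 (0.03 and 0.044), and Psmg2 had a log2 fold change of 0.06. Psmg3 and Psmg4 encode a second pair. Psmg4 had 6.07, 4.8 and 5.05 CPM in tatcre libraries, against 7.33, 7.56 and 6.86 CPM in mock libraries, without overlap (log2 fold change -0.45, SE 0.16, edgeR adjusted p = 0.053), and was called lower without tatcre 1 (edgeR adjusted p = 0.044). Psmg3, at 55 to 111 counts in tatcre and 78 to 115 in mock libraries, had the widest interval of the 40 genes, from -0.75 to 0.39 on the log2 scale.

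The 29 genes not called had log2 fold changes from -0.45 to 0.18, 18 of them below 0. For 24 of them the 95% interval lay within 0.5 of 0 on the log2 scale. A miss of the threshold does not show that a gene kept its level. Over the 40 genes the summed level was 5888, 5473 and 6061 CPM in tatcre libraries, against 6158, 6865 and 6578 CPM in mock libraries, a ratio of 0.889 between the group means. Within groups the libraries were not level: tatcre 2 was the lowest tatcre library for 31 of the 40 genes and mock 2 the highest mock library for 30. Without mock 2 the number of genes called lower was 6 (beside 12.2% of all tested genes). Without mock 3, the library that stood apart, it was 9 (beside 14.1%), and with all libraries 10 (beside 16.3%).

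Other genes of the pathway were then read from lists of 53 genes, of which 49 were tested: 11 were called lower, or 22.4% (beside 16.3% of all tested genes), 3 higher, or 6.12% (beside 10.8%), and 35 were not called. The split of 11 to 3 was 8 to 5 with upper-quartile factors, 6 to 6 with library size alone and 8 to 1 with the replicate block. It was 5 to 1 at an adjusted p under 0.01 and 8 to 1 without mock 2. Without mock 2, 12.2% of all tested genes were called lower and 6.19% higher. Immune cells can replace the catalytic subunits by inducible ones. Of these immunosubunits Psmb8, the substitute of Psmb5, averaged 126 ± 9.44 CPM in tatcre and 160 ± 8.27 CPM in mock cells, and Psmb9, the substitute of Psmb6, averaged 99 ± 11.7 CPM in tatcre and 141 ± 7.82 CPM in mock cells (SD, n = 3 each). Both were called lower (log2 fold changes -0.34 and -0.51, edgeR adjusted p = 0.011 and 0.003), and Psmb10 was not (-0.12). Of the tissue-restricted core genes Psmb11 was at or under 1.62 CPM in every library and was not called, and Psma8 was not tested.

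Among 5 tested genes of further 19S subunits and base chaperones 1 was called higher and 1 lower, or 20% each. Of all tested genes 10.8% were called higher and 16.3% lower. Sem1, a small lid subunit that also serves other complexes, had 470, 475 and 465 CPM in tatcre libraries, against 363, 371 and 379 CPM in mock libraries (log2 fold change 0.34, SE 0.07, edgeR adjusted p = 0.0033). Psmd5, a chaperone of base assembly, had 30.6, 31.4 and 29.3 CPM in tatcre libraries, against 42.1, 45.8 and 41.6 CPM in mock libraries (log2 fold change -0.50, SE 0.09, edgeR adjusted p = 0.0016). Both were separated without overlap, in opposite directions. Adrm1, a ubiquitin receptor, and the base chaperones Psmd9 and Psmd10 were not called (log2 fold changes -0.17, 0.21 and -0.19).

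Of 8 proteasome-associated genes 2 were called lower, or 25% (beside 16.3% of all tested genes), and 1 higher, or 12.5% (beside 10.8%). Akirin2, which is needed to bring proteasomes into the nucleus, averaged 66.5 ± 7.56 CPM in tatcre and 93.4 ± 4.23 CPM in mock cells (SD, n = 3 each; log2 fold change -0.49, edgeR adjusted p = 0.0035). Usp14, the deubiquitinase bound to the base, averaged 134 ± 8.96 CPM in tatcre and 178 ± 16 CPM in mock cells (log2 fold change -0.42, edgeR adjusted p = 0.0058). The ubiquitin ligase gene Ube3a was called higher (log2 fold change 0.38, edgeR adjusted p = 0.031), a call that ended without tatcre 2, mock 1 or mock 2 and with the replicate block (edgeR adjusted p = 0.12 at the highest). The inhibitor gene Psmf1 and the genes Uchl5, Ecpas, Txnl1 and Ube3c were not called. Uchl5 was called lower without tatcre 2 or without mock 1, and Ecpas higher with upper-quartile factors or library size alone.

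Nfe2l1 encodes NRF1, the factor that raises proteasome gene transcription when proteasome activity is low. It had 103, 94.7 and 113 CPM in tatcre libraries, against 124, 129 and 138 CPM in mock libraries (log2 fold change -0.33, SE 0.09, edgeR adjusted p = 0.017), without overlap. The call was lost without tatcre 1 (edgeR adjusted p = 0.063). Of the 11 tested genes of NRF1 control 3 were called lower, or 27.3% (beside 16.3% of all tested genes), and 1 higher, or 9.09% (beside 10.8%). Fbxw7, a ubiquitin ligase receptor that targets NRF1, averaged 156 ± 1.85 CPM in tatcre and 220 ± 10 CPM in mock cells (SD, n = 3 each; log2 fold change -0.49, edgeR adjusted p = 0.00065). Btrc, another such receptor, was lower by edgeR (log2 fold change -0.36, adjusted p = 0.039), and the partner gene Mafg was higher (0.39, adjusted p = 0.022). The call of Btrc ended with DESeq2 and with any library but tatcre 1 left out. That of Mafg ended without tatcre 3, mock 2 or mock 3. The genes that process NRF1, Ddi2 and Ngly1, were not called (log2 fold changes -0.11 and 0.06).

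Upstream of the proteasome few genes were called. Of 6 ubiquitin and E1 genes 1 was lower: Uba1, the main ubiquitin-activating enzyme, at 396 ± 52 CPM in tatcre and 487 ± 23.7 CPM in mock cells (SD, n = 3 each; log2 fold change -0.30, edgeR adjusted p = 0.042), a call that ended without tatcre 1, tatcre 2, mock 1 or mock 2. Rps27a, which encodes a ubiquitin fused to a ribosomal protein, missed the threshold at a log2 fold change of -0.41 (edgeR adjusted p = 0.055) but was called lower without mock 1 (0.0069), without the low-count filter (0.0043) and with DESeq2 (0.046). Of 15 tested shuttle and unfoldase genes 2 were lower, the shuttle Ubqln2 (log2 fold change -0.40, edgeR adjusted p = 0.015) and the cofactor Nsfl1c (-0.31, edgeR adjusted p = 0.048). Nsfl1c was called without tatcre 3 or mock 1 but not without any of the other libraries, and Ubqln2 was not called without tatcre 3. The unfoldase gene Vcp averaged 86.3 ± 4.22 CPM in tatcre and 77.4 ± 5.22 CPM in mock cells and was not called, but was called higher with library size alone (edgeR adjusted p = 0.036). Faf2, a cofactor of that unfoldase, was not called (log2 fold change 0.16) but was called higher with upper-quartile factors and with library size alone (edgeR adjusted p = 0.044 and 0.02). Library size alone ended the calls of Nfe2l1, Btrc, Uba1, Ubqln2 and Nsfl1c, upper-quartile factors those of Btrc, Uba1 and Nsfl1c, and the replicate block those of Ube3a, Mafg, Btrc, Uba1 and Nsfl1c. With 13.3 to 16.7% called lower, these lists lie near the 16.3% of all tested genes.

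**Figure D5:**
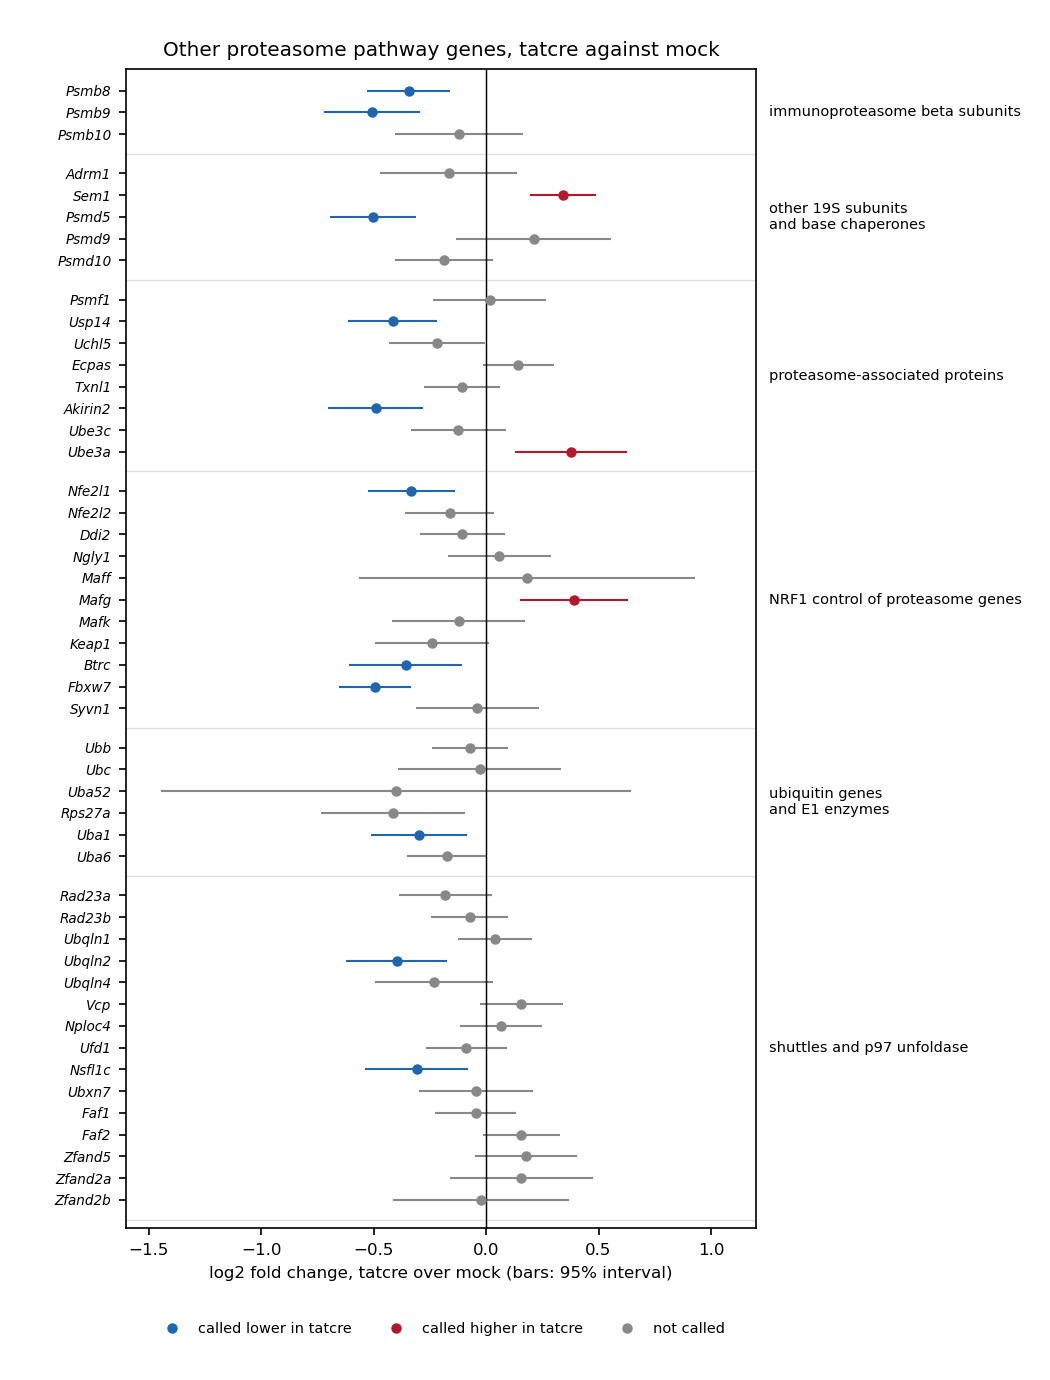
Log2 fold change, tatcre over mock (x axis), of 48 tested genes of the wider pathway by list (y axis), with 95% intervals as bars and the call as colour; Psmb11 is not drawn. Psmb9, Psmd5, Akirin2 and Fbxw7 lie near -0.5, and Sem1, Ube3a and Mafg are the 3 genes called higher.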

How the data were processed

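RNA-seq of 3 tatcre and 3 mock libraries was used. The deposited files hold raw counts per Ensembl gene. The tools HTSeq, TopHat2, Trimmomatic and SAMtools and the build mm10 are listed, without versions, per the submitters' processing notes. No source used here states the strand setting, the annotation or how multiply placed reads were handled, so overlapping genes and near-identical copies carry uncertainty. Symbols came from a table that matched 48349 of 48795 IDs, coordinates from RefSeq genes on GRCm38.

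Genes passing edgeR's filterByExpr (minimum count 10, minimum total 15) were scaled by TMM and compared by quasi-likelihood in edgeR 4.0.16 under R 4.3.3, Benjamini-Hochberg adjusted over 15546 genes at a threshold of 0.05. The SE is the absolute log2 fold change over the square root of F, and intervals use its t distribution at 95%. The detection floor was 3 counts per library (0.111 to 0.128 CPM), for counting error only. No 2 replicates agreed within sampling noise (smallest chi-square per degree of freedom 7.5). Alternatives were other scalings, no filter, DESeq2 1.42.0, a replicate block, a threshold of 0.01 and leaving out each library.

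The members, lists, motifs and tests were chosen with earlier results of these data known. All 40 members and every called gene of the other lists are named. Levels per transcript length were planned but not computed, as no exon lengths were at hand, so CPM is not compared between genes. Paaf1, on 1 list, is not analysed here, and the ChIP peak lists were not used because their build is not settled.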

Additional observations from a re-analysis of the deposited data

How the results depend on the processing

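The calls of Psmc3, Psmd11, Psmb5 and Psma4 (lower) and of Psma3 (higher) held under all 13 alternatives, and 25 of the 29 genes not called stayed so. Genes called lower numbered 5 with library size alone, 4 at a threshold of 0.01 and 6 to 11 with a library left out. Genes called higher numbered 2 with upper-quartile factors or library size alone and 1 to 2 with a library left out. With a library left out 12.2 to 14.9% of all tested genes were called lower and 6.19 to 10.5% higher. With library size alone the alpha ring had 1 lower, the beta ring 1 higher, the base 2 lower and the lid 1 lower; at 0.01 alpha ring, base and lid had 1 lower each; with upper-quartile factors the beta ring had 1 higher and the base 2 lower. Without the low-count filter activators and chaperones had 1 lower each, and with DESeq2 the activators had 1. With a library left out lower calls ranged from 1 to 2 in the alpha ring, 2 to 5 in the base, 1 to 2 in the lid, 0 to 1 in activators and 0 to 1 in chaperones, and higher calls from 0 to 1 in the beta ring. The cause was not tested.

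The deviations of same-numbered libraries had correlations over genes of 0.06, -0.03 and 0.23. For libraries with different numbers these ran from -0.33 to 0.25. With 3 libraries per group such values cannot decide whether equal numbers mark the same mouse. The reported calls treat the libraries as unpaired. With the replicate number as a block 7 genes were called lower and 1 higher, with 1 lower in the alpha ring and 3 in the base. Of all tested genes 2108 were then called lower and 1313 higher, against 2536 and 1679 without it; at 0.01 these were 1592 and 778. Without mock 2 there were 1960 and 998, and without tatcre 1 1975 and 1002.

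Signs turned for 13 genes, none of them called. With library size alone the log2 fold changes of Psmb2, Psmd1, Psmd6 and Psmd14 were 0.078, 0.046, 0.016 and 0.031, and with upper-quartile factors those of Psmb2 and Psmd1 were 0.041 and 0.0087. Without the filter those of Psma5, Psmc2 and Psmd7 were -0.026, -0.0022 and -0.0038. With a library left out Psma5 ranged from -0.068 to 0.049, Psmb1 from -0.040 to 0.093, Psmb2 from -0.066 to 0.00076, Psmc2 from -0.049 to 0.11, Psmd2 from -0.059 to 0.11, Psmd3 from -0.26 to 0.0045, Psmd7 from -0.035 to 0.11, Psmd13 from -0.026 to 0.068, Psmg2 from -0.0069 to 0.098 and Psmg3 from -0.42 to 0.037. Low counts limit Psmg3, Psmg4, Psmb5 and Psme2 most, and for Psme2 the handling of reads shared with Psme2b is not stated.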
